A study of Homo sapiens with 24 samples.

Results

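Gene expression was compared between lymphoma cells kept without drug for 12 h and the same lines at the start of the experiment. The comparison took every array labelled as a control, 12 of the 24 arrays of the series, with 6 at 12 h and 6 at 0 h. Both times were measured in BL41, a Burkitt lymphoma line, and in Su-4 and Ocily2, germinal centre-type diffuse large B-cell lymphoma lines that the study writes as SU-DHL-4 and Oci-Ly-2. Each line gave 2 arrays at 0 h and 2 at 12 h. The labels give no treatment for these cells, whereas the study's text also speaks of vehicle, and the cells were grown in RPMI medium with serum. The other 12 arrays, at 4 h and 12 h with 5 µM artesunate, an antimalarial drug, were used here only for scale. The 3 lines were chosen by the study for their MYC status, which is translocated in BL41, not translocated in Su-4 and mutated in Ocily2.

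The design text calls the pair of arrays in each group technical replicates, so the p-values below rest mainly on array-to-array spread. In the pooled fit, variation among cultures enters only as a difference between lines in the change over time. In the fits of single lines it does not enter. A fit on the mean of each pair, with the 3 lines as the replicates, is given where it changes a call.

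Untreated cells in culture can change with time as they divide and draw on the glucose, amino acids and serum factors of their medium. Lymphoma lines of these kinds carry the programme of germinal centre B cells, with a B-cell receptor, MHC class II and transcription factors such as OCT2 and MEF2C. A 12 h control serves as the reference for a 12 h treatment, and comparing it with the 0 h control shows how far the untreated cells differed between these times. RNA abundance was measured as bead signal per probe, and all values below are background-corrected, quantile-normalized log2 intensities unless another scale is named.

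Of 22116 probes detected in these cells, 1 changed between 0 h and 12 h at an absolute log2 change over 0.5 and an adjusted p under 0.01, which is 0.00452% of those tested. It was lower at 12 h, and no probe was higher. No gene with a symbol passed, out of 11778 measured. At an unadjusted p under 0.05 there were 2089 probes (9.45%), with 1047 higher (4.73%) and 1042 lower (4.71%). At an adjusted p under 0.05 with the same minimum of change, 3 probes passed (0.0136%).

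The probe that passed, ILMN_3310491, has no gene name in the tables used here. It read 13.29 and 13.18 on the BL41 arrays at 0 h and 12.24 on both at 12 h. In Su-4 it read 12.35 and 12.47 at 0 h against 11.54 and 11.41 at 12 h. In Ocily2 it read 12.39 and 12.19 at 0 h against 11.22 and 11.13 at 12 h. Both 12 h arrays lay below both 0 h arrays in each of the 3 lines, and the 12 arrays overlapped only between lines. The pooled log2 change was -1.02 ± 0.08 (SE), a 2.02-fold lower signal, with an adjusted p of 6.0e-05 by limma. The change was -1.0 in BL41, -0.94 in Su-4 and -1.12 in Ocily2. With 4 h of artesunate the mean over the 3 lines was 12.13, between the 12.65 of the 0 h control and the 11.63 of the 12 h control. In the fit on array means, which has 2 residual degrees of freedom, the smallest adjusted p of any probe was 0.0783, which was this probe's, and no probe passed. Without BL41 its change was -1.03 (adjusted p 0.0285) and without Ocily2 -0.97 (adjusted p 0.026), so in both of these smaller fits it no longer passed.

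**Figure D1:**
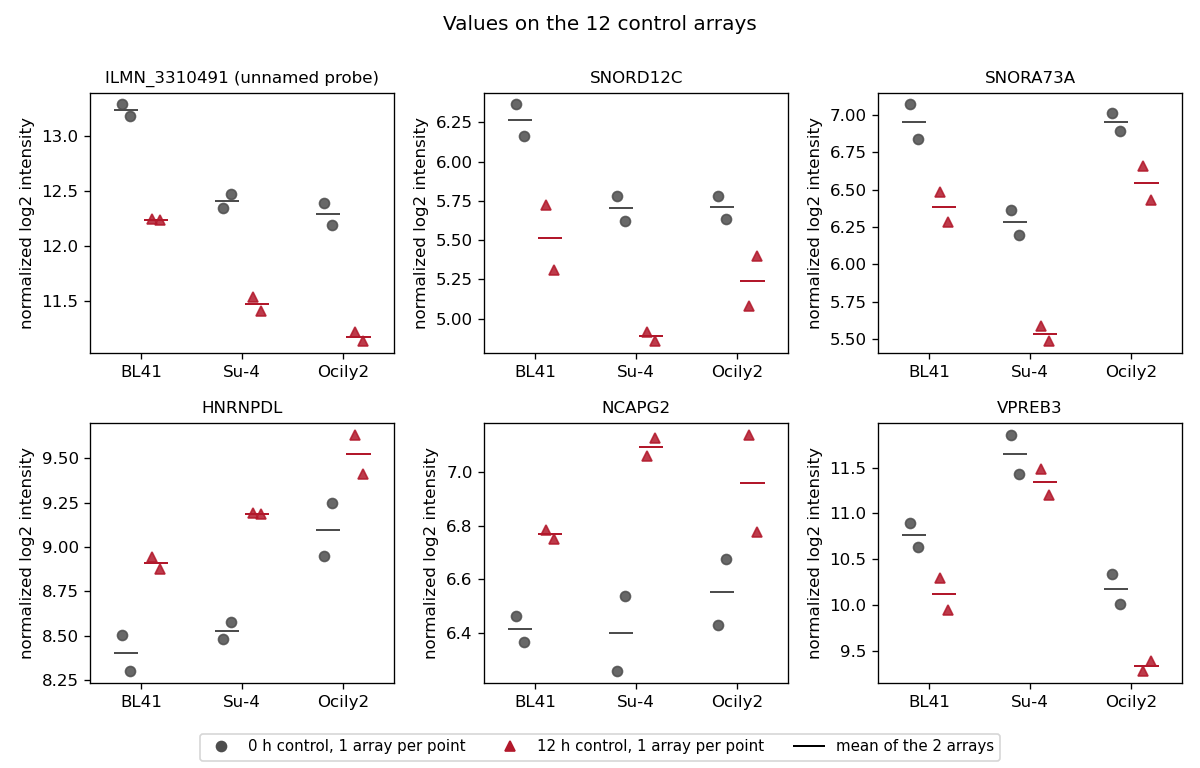
Normalized log2 intensity (vertical axes, which do not start at 0) of 6 probes on the 12 control arrays by line, with 0 h in grey circles, 12 h in red triangles and a bar at the mean of each pair. ILMN_3310491 lay lower at 12 h in all 3 lines, with a pooled change of -1.02, and it is the probe among these 6 that passed the threshold.

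Most of the measured transcriptome held within narrow bounds, as judged mainly from array-to-array spread. Of the 11778 genes, 7215 were detected on all 12 arrays. The median absolute change was 0.0917, the 99th percentile was 0.406, and 60 probes differed by more than 0.5. The 95% interval of the pooled change lay within 0.5 of 0 for 19877 probes (89.9%) and for 10641 of 11778 genes (90.3%), and within 1 of 0 for 22091 probes (99.9%). The median standard deviation between the 2 arrays of a group was 0.187, larger than the median change.

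For scale, fits of the same size were made with the drug. At 12 h, artesunate against control called 1142 of 22682 probes (5.03%), with 583 higher (2.57%) and 559 lower (2.46%), and 28.8% of the probes were at an unadjusted p under 0.05. At 4 h, artesunate against the 0 h control called 315 of 22072 probes (1.43%), with 8 higher (0.0362%) and 307 lower (1.39%), and 15.7% were at an unadjusted p under 0.05. These comparisons share their control arrays with the comparison over time, so their calls are given only side by side. The series holds no 4 h control, so at 4 h the drug and the time in culture cannot be told apart. Changes over 1 were seen for 1 probe over time, 5 probes at 4 h and 115 probes at 12 h of artesunate.

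**Figure D2:**
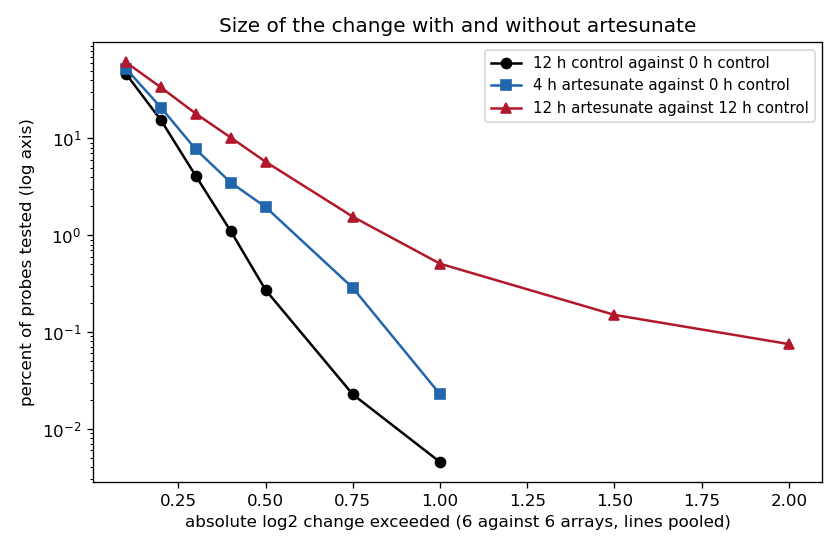
Percent of tested probes (vertical axis, log scale) whose absolute log2 change exceeded each value on the horizontal axis, for 12 h against 0 h control (black), 4 h artesunate against 0 h control (blue) and 12 h artesunate against 12 h control (red). At 0.5 the shares were 0.271%, 1.95% and 5.73%; a value of 0 cannot be drawn on this axis, so the black and blue lines end at 1.

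Array-wide measures did not separate the times. Between 16156 and 17921 probes were detected per array at 0 h and between 16699 and 17300 at 12 h, a difference of the means of 23.2 (exact permutation test within lines, two-sided, p = 0.935, smallest possible 0.00926). The mean of the arrays' median raw signal was 100.2 at 0 h and 99.9 at 12 h (exact permutation test, p = 0.926). Of 9 B-lineage identity markers on the array, 8 were detected and 7 of them on all 12 arrays, including MS4A1 (CD20), CD79A and CD79B. PAX5 was not detected. Of 10 T-cell markers 3 were detected on 2 or more arrays, LCK on all 12, CD28 on 9 and CD2 on 2, and the defining CD3D, CD3E and CD3G were not. Of 8 NK-cell markers 1 was detected, KLRF1 on 2 arrays. Of 10 monocyte markers 5 were detected, none of them on all 12 arrays, with LYZ on 11 and CSF1R, S100A8 and S100A9 not detected. Of 7 erythroid markers on the array 2 were detected, AHSP on 9 arrays and HBA2 on 3, and HBB was not. Of 10 epithelial and fibroblast markers 2 were detected on 2 or more arrays, COL1A1 and DCN, none of them on all 12, and EPCAM and KRT8 were not. The summed linear level ran from 499.8 to 729.9 at 0 h and from 502.7 to 636.6 at 12 h for the T-cell probes, and from 377.5 to 511.5 and 356.2 to 414.6 for the monocyte probes, with overlap in both. For the epithelial and fibroblast probes it ran from 384.7 to 1935.1 at 0 h and from 379.7 to 1982.3 at 12 h, also with overlap. The part of such cells in the results was not tested.

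With each gene read from its brightest probe, the 2 genes of lowest p with a symbol were small non-coding RNAs of the nucleolus. Small nucleolar RNAs (snoRNAs) guide the chemical modification of ribosomal RNA, box C/D members for methylation and box H/ACA members for pseudouridylation, and most are cut from the introns of host genes. Whether a snoRNA probe read the mature RNA or a longer transcript that holds it was not tested. SNORD12C, a box C/D snoRNA, ranged from 5.62 to 6.36 at 0 h with a median of 5.78, and from 4.86 to 5.72 at 12 h with a median of 5.20. The ranges overlapped across lines, but within each line both 12 h arrays were below both 0 h arrays. The log2 change was -0.68 (95% interval -0.90 to -0.46) with an adjusted p of 0.0632, so it did not pass. This was the smallest adjusted p when each gene was read from its brightest probe.

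SNORA73A and SNORA73B are near-identical box H/ACA RNAs that act in the cleavage of the ribosomal RNA precursor, and their probes may not tell them apart. SNORA73A read 6.20 to 7.07 at 0 h (median 6.86) and 5.49 to 6.66 at 12 h (median 6.36), with a change of -0.57 and an adjusted p of 0.081. SNORA73B was added here after its values were seen. Its probe ILMN_3243677 changed by -0.61 with an adjusted p of 0.0399, and its other probe by -0.63 with an adjusted p of 0.324. All 3 probes had both 12 h arrays below both 0 h arrays in every line. SNORA24 (-0.45), SNORD35B (-0.55) and SNORA3B (-0.43) also came among the 10 lower genes of lowest p, with adjusted p-values of 0.248 to 0.316, and SNORA56 (0.42, adjusted p 0.322) among the 10 higher ones.

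Over all 144 snoRNAs measured, no member passed the threshold. At an unadjusted p under 0.05, 23 were lower and 10 higher, against 607 lower (5.15%) and 592 higher (5.03%) of all 11778 genes. The groups did not overlap in any of the 3 lines for 11 snoRNAs that were lower and 1 that was higher, against 158 (1.34%) and 185 (1.57%) of all genes. The median change over the snoRNAs was -0.0185, beside 0.00499 over all genes, so the snoRNAs as a whole were centred near 0. Among 77 box C/D members 14 were lower and 2 higher at an unadjusted p under 0.05. Among 66 box H/ACA members the counts were 9 lower and 8 higher. The lower members were thus more numerous than the higher ones among box C/D snoRNAs and about even among box H/ACA snoRNAs by this count.

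The genes that contain these snoRNAs were read from their own probes. For 110 snoRNAs the RefSeq gene table places exactly 1 other measured gene around them, 66 genes in all, without regard to strand. Of the snoRNAs that were lower at an unadjusted p under 0.05, 18 had such a gene, and their median change was -0.40. The 15 genes around them had a median change of -0.0115 and ranged from -0.21 to 0.41, and 0 were lower at an unadjusted p under 0.05. The 18 snoRNAs were picked for being lower in this same comparison, so their low median follows from the selection. Without selection, the median was -0.042 over the 110 snoRNAs and 0.014 over the 66 genes. ZFAS1, a non-coding host that contains SNORD12C and SNORD12, changed by -0.02 ± 0.10 (SE), whereas the snoRNAs changed by -0.68 and -0.35. A further snoRNA of ZFAS1, SNORD12B, changed by -0.05. RPS12, which encodes a ribosomal protein and contains SNORD100, changed by -0.01 beside -0.49 for the snoRNA. The other snoRNAs within RPS12, SNORA33 and SNORD101, changed by -0.18 and -0.04. RPL27A changed by 0.05 beside -0.43 for SNORA3B and -0.21 for SNORA3A. SNHG8, host of SNORA24, changed by -0.17 beside -0.45. The span of RCC1, which contains both SNORA73 genes, belongs to a locus with a further host gene, and RCC1 itself changed by 0.41 with an adjusted p of 0.489. No test of the difference between a snoRNA and its containing gene was made.

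**Figure D3:**
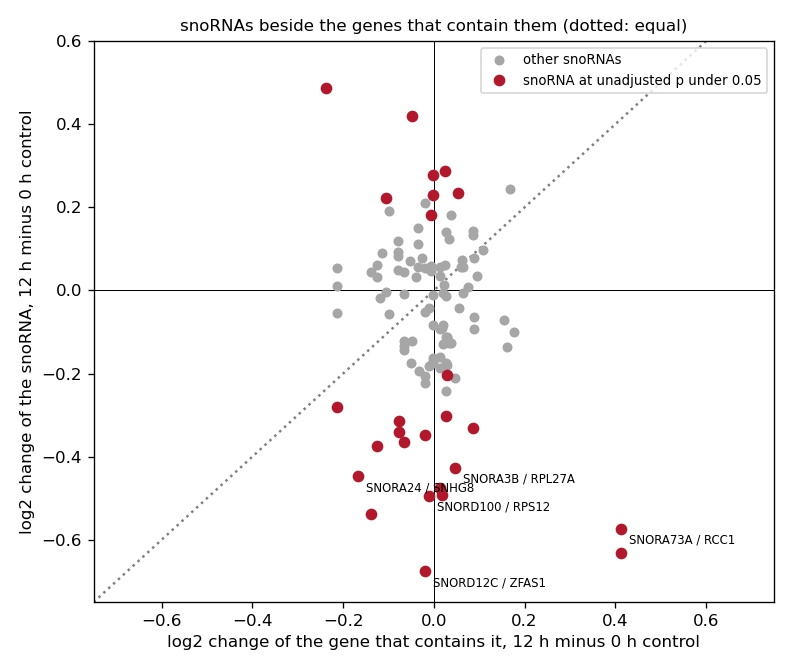
Log2 change from 0 h to 12 h control of 110 snoRNAs (vertical axis) against that of the gene whose RefSeq span contains them (horizontal axis), with snoRNAs at an unadjusted p under 0.05 in red and equal change on the dotted line. The red points were chosen by this comparison. Most red points lie below 0 at gene values near 0, such as SNORD12C at -0.68 with ZFAS1 at -0.02.

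Spliceosomal and related nuclear RNAs form a smaller list. Whether their probes read the mature RNAs was not tested either. Of 13 measured genes annotated as snRNA, 11 had a negative change, 5 were lower at an unadjusted p under 0.05 and 0 were higher, and the median was -0.23. Over all 11778 genes 5730 had a negative change, and 5.15% were lower and 5.03% higher at that p. The 5 were RNU1-1, RNU1-3 and RNVU1-18, which encode U1 or its variants and are too alike in sequence to be told apart with certainty, SNAR-A1, a multi-copy RNA, and RNU11, of the minor spliceosome. RNU1-1 read 7.27 to 7.73 at 0 h (median 7.52) and 6.89 to 7.45 at 12 h (median 7.20), a change of -0.32 with an adjusted p of 0.352. The 12 h arrays lay below the 0 h arrays in each line. RN7SK, which holds the elongation factor P-TEFb inactive, changed by -0.18 and RNU6-1 by -0.09. The 5S ribosomal RNA gene RNA5S9, added after its values were seen, changed by -0.45 with an adjusted p of 0.352.

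Genes of the B-cell surface were mostly on the negative side, with none past the threshold. VPREB3, which associates with the pre-B-cell receptor, read 10.01 to 11.86 at 0 h (median 10.76) and 9.28 to 11.48 at 12 h (median 10.12). Its change was -0.60 (95% interval -0.86 to -0.34, adjusted p 0.262). The pairs of arrays separated in BL41 and Ocily2 and overlapped in Su-4. CD72, an inhibitory co-receptor of B cells, read 7.42 to 8.89 at 0 h (median 8.30) and 7.01 to 8.13 at 12 h (median 7.56), with a change of -0.67 and an adjusted p of 0.352. It was alike in the 3 lines, at -0.62 in BL41, -0.72 in Su-4 and -0.67 in Ocily2. CD24 (-0.43) and the tetraspanin CD37 (-0.38) were less even, and CD24 was -1.10 in Su-4 but 0.08 in BL41. The low Su-4 value of CD24 rests on 1 probe, since the other read a change of -0.07 there and -0.15 pooled.

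Of 25 genes listed for the B-cell receptor and surface, 21 had a negative change and 6 were lower at an unadjusted p under 0.05, with a median of -0.16 and 0 higher, beside 5730 of 11778 genes negative and 5.15% lower over all genes. The line medians were -0.13 in BL41, -0.22 in Su-4 and -0.03 in Ocily2. Of the 8 B-lineage identity markers measured, which the surface list partly shares, all 8 were negative by the probe that gave the gene's value, and 3 were lower at an unadjusted p under 0.05 (5.15% over all genes). MS4A1 changed by -0.21 (adjusted p 0.516) and CD79A by -0.21 (adjusted p 0.486). For both the direction depended on the probe. A further CD79A probe, detected on all 12 arrays, changed by 0.38 (unadjusted p 0.0346, 0.76 in Ocily2), and another by -0.22. A further MS4A1 probe changed by 0.13. The summed linear level of the identity markers' probes ran from 15124 to 20407 at 0 h and from 13447 to 16061 at 12 h, and these ranges overlapped.

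Transcription factors of the germinal centre divided in direction. POU2F2 (OCT2), an activator of B-cell genes, read 5.66 to 7.18 at 0 h (median 6.32) and 5.16 to 6.45 at 12 h (median 5.76), a change of -0.60 with an adjusted p of 0.324, and its arrays separated in each line. MEF2C changed by -0.37 (adjusted p 0.324), with -0.35, -0.34 and -0.43 in BL41, Su-4 and Ocily2. SPIB, which cooperates with such factors, changed by -0.36, and MYB by 0.41, of which 0.84 in Su-4 and -0.03 in Ocily2. Over the 22 factors 5 were lower and 1 higher at an unadjusted p under 0.05, beside 5.15% and 5.03% over all genes. Their median was -0.03. MYC itself, the gene by which the lines were chosen, read 10.65 to 11.89 at 0 h and 10.59 to 11.73 at 12 h. Its change was -0.05 with a 95% interval of -0.24 to 0.15, and -0.13 by its other probe.

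MHC class II genes, through which B cells present antigen to T cells, had a median change of -0.11 over 18 genes. Of these 2 were lower at an unadjusted p under 0.05, beside 5.15% over all genes. HLA-DMB, which helps load peptides onto class II molecules, changed by -0.40 (adjusted p 0.337) and by -0.59, -0.37 and -0.23 in BL41, Su-4 and Ocily2, with separated arrays in each line. RFX5, a factor for class II transcription, changed by -0.21 by its brighter probe and by 0.19 by the other, so its direction depended on the probe. Among 24 targets and feedback genes of NF-kB, 6 were lower and 0 higher at an unadjusted p under 0.05, with a median of -0.07, beside 5.15% lower and 5.03% higher over all genes. CCL3 changed by -0.58 but was detected on 3 of the 12 arrays. TNF was detected on 4 arrays, and its change of -0.47 came from Su-4, at -1.37, beside -0.01 in BL41 and -0.03 in Ocily2.

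Cell-cycle genes lay on the other side of 0. Of 32 genes of G2/M and mitosis, 31 had a positive change, 8 were higher and 0 lower at an unadjusted p under 0.05, and the median was 0.17. Over all 11778 genes 6048 had a positive change, and 5.03% were higher at that p. The median was 0.22 in BL41 and in Ocily2 and 0.07 in Su-4. BUB1, a kinase of the spindle checkpoint, read 7.85 to 8.58 at 0 h (median 8.24) and 7.99 to 8.75 at 12 h (median 8.49), a change of 0.28 with an adjusted p of 0.395. PRC1, which bundles microtubules between the separating chromosomes, changed by 0.27 (adjusted p 0.385). Both had 12 h arrays above the 0 h arrays in each line, as had 4 of the 32 genes. The mitotic cyclin CCNA2 changed by 0.27 in the pooled fit and by 0.26, 0.27 and 0.29 in BL41, Su-4 and Ocily2. PLK1 ran from -0.03 in Su-4 to 0.61 in Ocily2. The condensin II subunit NCAPG2, outside this list, was among the 10 higher genes of lowest p, with 6.26 to 6.67 at 0 h (median 6.45) and 6.75 to 7.14 at 12 h (median 6.92). Its ranges did not overlap across the 12 arrays, and its change was 0.49 with an adjusted p of 0.262.

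Of 29 genes of G1/S and DNA replication, 26 had a positive change, and the median was 0.15. Of the 29 genes 2 were higher at an unadjusted p under 0.05, beside 5.03% over all genes. Here the lines were uneven, with medians of -0.01 in BL41, 0.36 in Su-4 and 0.05 in Ocily2. E2F1, which drives S-phase genes, changed by -0.03, 0.62 and 0.77 in these lines and by 0.45 pooled (adjusted p 0.435). The F test for a difference between the lines had an unadjusted p of 0.0969 for E2F1. CDT1, a licensing factor of replication, changed by 0.65 in Su-4 and by 0.24 pooled. Replication-dependent histone genes, in a list that also names SLBP and NPAT, had a median of 0.04 over 18 genes. By the brightest probe of each gene 0 were at an unadjusted p under 0.05. A further H2BC12 probe changed by -0.31 (unadjusted p 0.0215).

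The remaining genes of lowest p on the higher side were of mixed function. HNRNPDL, an RNA-binding protein of the hnRNP family, read 8.30 to 9.24 at 0 h (median 8.54) and 8.87 to 9.63 at 12 h (median 9.19), with separated arrays in each line. Its change was 0.53 (95% interval 0.34 to 0.72) with an adjusted p of 0.0959, while its other probe changed by -0.09. With artesunate the brighter probe had a mean of 8.98 at 4 h and 9.81 at 12 h. TNKS2, a poly-ADP-ribosylating enzyme, changed by 0.48 (adjusted p 0.231) near background, detected on 5 of 12 arrays. LTB4R, a leukotriene receptor, changed by 0.51, MIR29B1, the gene of a miR-29b precursor, by 0.37 with detection on 4 arrays, and MTFR1, a regulator of mitochondrial fission, by 0.37. PLCL2 changed by 0.33, DFFB, the caspase-activated nuclease, by 0.43, and MXI1, an antagonist in the MYC and MAX network, by 0.49, while the other probe of MXI1 changed by 0.05. On the lower side stood METTL1, which methylates transfer RNA (-0.43, and -0.31 by its other probe), SYS1, a Golgi trafficking protein (-0.53), C2orf76 (-0.46) and SELE, the endothelial adhesion molecule E-selectin (-0.47, detected on 7 arrays).

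**Figure D4:**
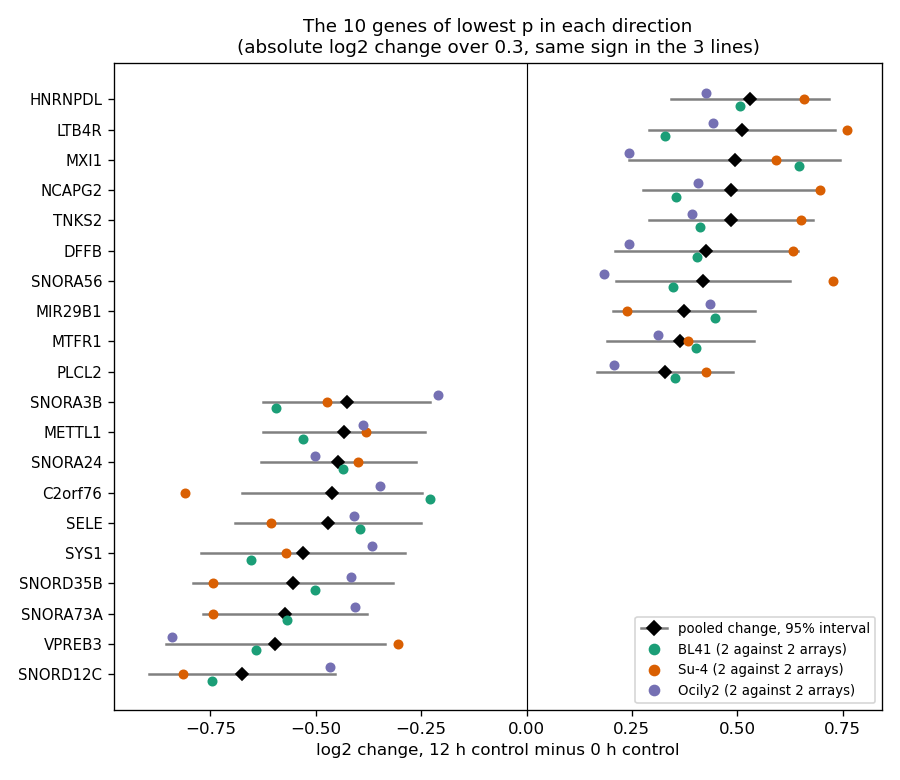
Log2 change from 0 h to 12 h control (horizontal axis) of the 10 genes of lowest unadjusted p in each direction with a change over 0.3 and the same sign in the 3 lines, with the pooled change and its 95% interval in black and grey and each line in colour. Each gene is shown by its brightest probe. These genes were chosen by this comparison and none passed the threshold. Their adjusted p-values began at 0.0632 for SNORD12C and 0.0959 for HNRNPDL.

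Genes that respond to medium and metabolites gave single members on either side. TXNIP, an arrestin-family protein whose RNA follows glucose supply, read 9.03 to 11.06 at 0 h (median 9.73) and 8.32 to 10.83 at 12 h (median 8.94). Its change was -0.64 (95% interval -1.07 to -0.22, adjusted p 0.385), with separated arrays in 2 of the 3 lines. INSIG1, a sterol-sensing brake on cholesterol synthesis, changed by 0.47 (adjusted p 0.382) and by 0.28 by its other probe, and TM7SF2, an enzyme of that synthesis, by -0.46. Over 24 cholesterol genes the median was 0.08, and 3 were higher and 2 lower at an unadjusted p under 0.05. Over all genes 5.03% were higher and 5.15% lower at that p. Glycolysis genes had a median of 0.11 over 21 genes, with line medians of 0.08 in BL41, 0.12 in Su-4 and 0.11 in Ocily2. Of these 1 member, GAPDH (0.17, unadjusted p 0.049), was higher at an unadjusted p under 0.05. Further GAPDH probes changed by 0.10 and 0.09. Among 22 further targets of hypoxia-inducible factor 3 were higher at an unadjusted p under 0.05, beside 5.03% over all genes. Among the 3 was KDM3A (0.47), a histone demethylase.

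Of 9 metallothionein and zinc transport genes 6 were at an unadjusted p under 0.05, with 4 lower and 2 higher, beside 10.2% in either direction over all genes. MT1X, a metal-binding protein, read 9.54 to 10.59 at 0 h (median 9.87) and 9.05 to 10.20 at 12 h (median 9.43). Its change was -0.41 (adjusted p 0.34) and its arrays separated in each line. MT2A changed by -0.57, the zinc exporter SLC30A1 by -0.33 (-0.08 by its other probe) and the zinc importer SLC39A10 by 0.43. The median over this list was -0.04, and 2 of the 9 had an interval within 0.5 of 0, so larger changes could not be bounded for the others.

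Stress programmes gave no call. Of 24 genes of the ATF4 and amino acid response 4 were higher and 1 lower at an unadjusted p under 0.05, which is 20.8% beside 10.2% over all genes. The lower one was DDIT3, the factor CHOP, at -0.27 in BL41, -0.27 in Su-4 and -0.26 in Ocily2 (adjusted p 0.357). The amino acid transporter SLC38A2 changed by 0.30 and the serine synthesis enzyme PHGDH by 0.28. Of 23 endoplasmic reticulum chaperone and unfolded protein genes 1 was higher, the oxidoreductase ERO1A at 0.36, and 1 lower, CRELD1 at -0.24. HSPA5, the chaperone BiP, changed by -0.22, with -0.32, 0.13 and -0.48 in BL41, Su-4 and Ocily2. Cytosolic heat shock genes had a median of 0.04 with 2 of 22 higher, BAG3 (0.31) and HSPA4L (0.27). Of 20 genes of the NRF2 and thioredoxin systems 2 were higher and 1 lower, the lower one being the quinone reductase NQO1 (-0.42, adjusted p 0.358). Iron genes had 0 of 11 at an unadjusted p under 0.05, and all 11 intervals lay within 0.5 of 0, with HMOX1 at 0.10.

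Survival genes gave no call. MCL1, an inhibitor of apoptosis, changed by -0.32 (adjusted p 0.385) by its brighter probe and by -0.09 by the other. BAK1 (0.39) and BAX (0.34), which open the mitochondrial outer membrane, were on the higher side, and BAK1 was at 0.77 in BL41 and 0.06 in Ocily2. The other BAX probe changed by 0.06. Among 17 p53 targets 3 were higher and 0 lower at an unadjusted p under 0.05, beside 5.03% higher and 5.15% lower over all genes. CDKN1A, the cell-cycle inhibitor p21, stood at -0.27 with an unadjusted p of 0.18. TFEB, a regulator of lysosome genes, changed by -0.33 and the autophagy protein GABARAP by -0.51. Their list of 32 genes had 3 lower and 3 higher at an unadjusted p under 0.05, beside 10.2% in either direction over all genes.

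The large constitutive complexes had narrow bounds. For 39 cytosolic ribosomal proteins, 39 genes of the respiratory chain and ATP synthase and 30 of the proteasome, 0 were at an unadjusted p under 0.05 and every 95% interval lay within 0.5 of 0. Their medians were -0.0045, 0.05 and 0.03. The extremes were RPL13 at -0.21 and SDHA at 0.17. All 29 genes of nucleolar ribosome assembly had intervals within 0.5 too. Of them 2 were higher, NOLC1 and FBL, and 1 lower, RRP12, at an unadjusted p under 0.05, beside 10.2% over all genes. Circadian clock genes had 0 of 12 at an unadjusted p under 0.05 and a range of -0.19 to 0.14. Of the reference genes ACTB changed by -0.09 (95% interval -0.27 to 0.08) and by -0.20 by each of its other probes, and TBP (0.26) and HPRT1 (0.26, and 0.14 by its other probe) were higher at an unadjusted p under 0.05.

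**Figure D5:**
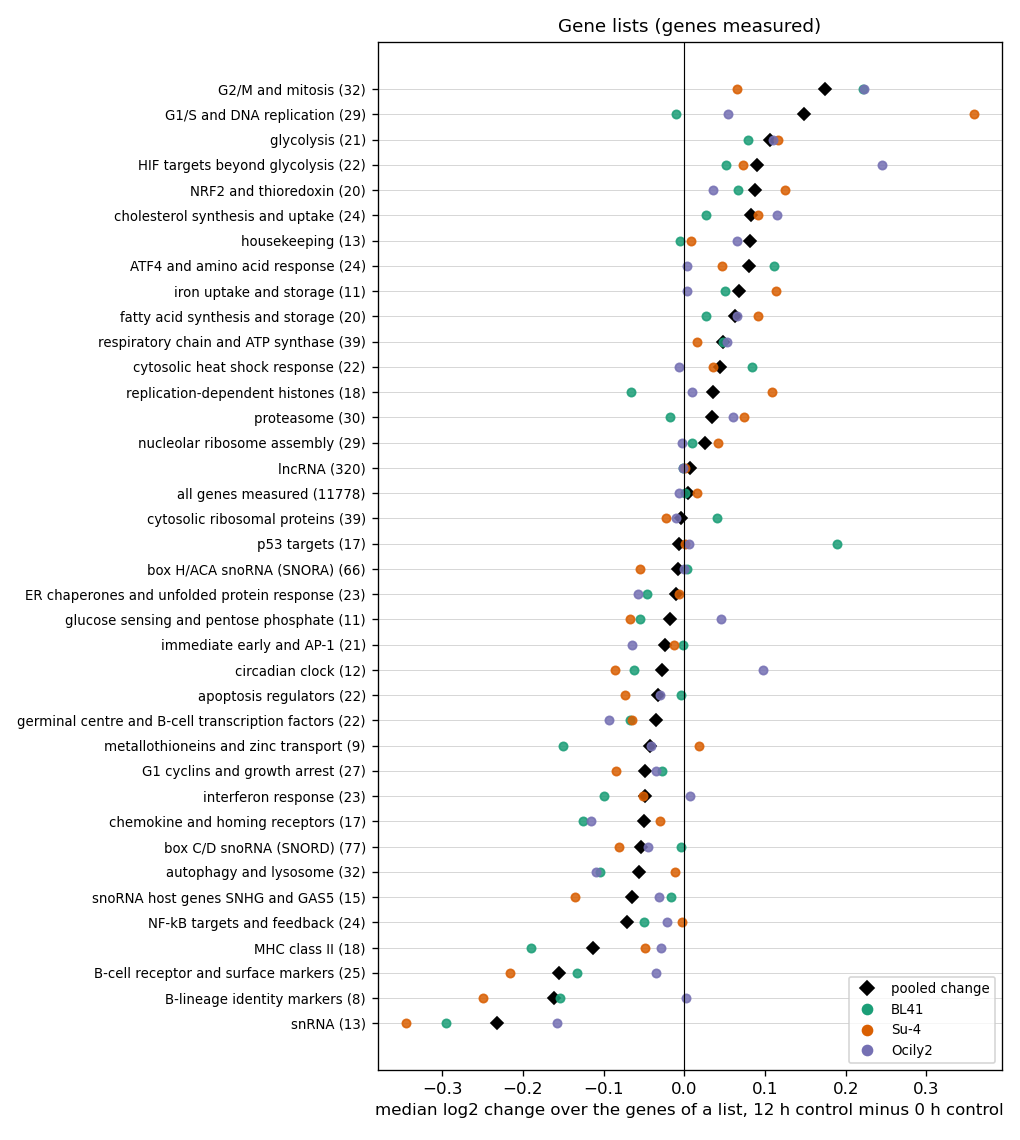
Median log2 change from 0 h to 12 h control (horizontal axis) over the measured genes of each list, with the number of genes in brackets, for the pooled fit (black) and each line (colour). The marker lists of other cell types, all snoRNAs together and the protein-coding genes are not drawn. Medians ran from -0.23 for snRNA to 0.17 for G2/M and mitosis, beside 0.00499 for all genes, and no member of any list passed the threshold.

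The change of each line was taken from a joint model of the 6 groups in which the lines share the estimate of spread. No probe passed in any line. At an unadjusted p under 0.05 there were 1140 probes (5.15%) in BL41, 1827 (8.26%) in Su-4 and 984 (4.45%) in Ocily2. Changes over 0.5 numbered 510 in BL41, 1088 in Su-4 and 471 in Ocily2. Across the 22116 probes of the same arrays the changes of 2 lines had a Pearson correlation of 0.160 for BL41 and Su-4, 0.155 for BL41 and Ocily2 and 0.106 for Su-4 and Ocily2. These are descriptions across probes, which are not independent replicates. The sign agreed in all 3 lines for 7324 probes (33.1%). The pairs of arrays were separated in the same direction in each line for 284 probes that were higher (1.28%) and 249 that were lower (1.13%).

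The F test for a difference of the change between lines called no probe at an adjusted p under 0.01, with 1008 probes (4.56%) at an unadjusted p under 0.05. The lowest p belonged to LOC100130298, which changed by -1.42 in Su-4 against -0.12 in BL41 and 0.27 in Ocily2 (adjusted p 0.263) and was detected on 2 of the 12 arrays. UBE2R2, a ubiquitin-conjugating enzyme, changed by 0.79 in Su-4 against -0.18 in BL41 and -0.36 in Ocily2. AJUBA, a LIM-domain protein, stood at 0.86 in Su-4 and below 0 in the others, PRDM2 at 0.56 in Su-4 and -0.73 in Ocily2, and DIP2C at -0.85 in Su-4 and 0.22 in BL41. The other PRDM2 probe, detected on 6 arrays, went the other way, at -0.28 in Su-4 and 0.08 in Ocily2. By the probes that gave the genes' values, Su-4 stood at one end in each of these 5 genes. The genes were picked by this same test. Over all probes the standard deviation of the change was 0.248 in Su-4, 0.210 in BL41 and 0.203 in Ocily2. None of the differences passed.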

How the data were processed

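Total RNA from BL41, Su-4 and Ocily2 was hybridized by the authors to Illumina HumanHT-12 v4 arrays, 24 in all. The authors deposited average bead signal intensity per probe, not normalized, with a detection p-value against negative controls, and a table of processed intensities, which differed from a quantile normalization of the signals by at most 0.0207 (log2). The sources used here do not give the authors' normalization; the submitters' processing notes name limma. The number of arrays limits the precision.

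Signals were background-corrected and quantile-normalized with neqc (limma 3.58.1, R 4.3.3, offset 16) over the 24 arrays. Probes entered the tests if 2 or more of the 12 control arrays detected them (p under 0.05). The limma model held line and time (8 residual and 6.24 prior degrees of freedom), p-values were adjusted by Benjamini-Hochberg over all probes, and the study's thresholds were used. A gene took its called probe of lowest absolute change, otherwise its brightest probe. Of 22116 probes 15673 had 1 symbol, 2 several and 6441 none, with symbols updated by gene ID from RefSeq (GRCh38.p14).

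Named were the called genes, filled to 10 in each direction by the lowest p among genes with a change over 0.3 and the same sign in 3 lines; the 5 genes of lowest F test p; from each list, the members of largest change, up to 4; ACTB, GAPDH and MYC; and genes said to be added. The members, lists and tests were chosen with earlier results of these data known. Same-numbered arrays (d1 or d3) of the 2 times of a line deviated together with correlations of 0.104 to 0.144, but among all 15 pairs of groups only 6 exceeded 0.1. The model was tested on simulated data. Alternatives covered normalization, filters, blocks and left-out arrays and lines.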

Additional observations from a re-analysis of the deposited data

How the results depend on the processing

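The pooled count of 1 probe was recomputed in 32 other ways. It was 3 at an adjusted p under 0.05, 2 (1 of them higher) with all 24 arrays in the fit, and 0 with arrays averaged per culture, with the brightest probe of a gene taken first (a rule that drops unnamed probes), without cell line BL41 and without cell line Ocily2; it was 1 on leaving out any single array. It stayed at 1 with a replicate block, with a replicate block within each line and with a replicate block together with culture as a random block, the last 2 chosen after seeing the data; pairing changed no call. In single lines the count of 0 became 1 in Su-4 at an adjusted p under 0.05, 1 in each line from the deposited processed values, and 1 in BL41 and 2 in Ocily2 with all 24 arrays in the fit. The difference in detected probes was -101.7 at a detection p under 0.01 (exact permutation p = 0.722). Pooled signs turned for UBE2R2 (-0.0041 with array quality weights, -0.0427 to -0.0196 on leaving out either of 2 Su-4 arrays, -0.27 without Su-4), LOC100130298 (0.0764) and AJUBA (-0.19) without Su-4, and PRDM2 (0.15) and MYC (0.0123) without Ocily2. The size of some changes also depended on the setting. Over all settings SNORD12C ran from -0.78 to -0.26, SNORA73A from -0.66 to -0.30 and SYS1 from -0.61 to -0.20. LTB4R ran from 0.17 to 0.60 and TNKS2 from 0.17 to 0.53. Others moved less, such as HNRNPDL from 0.46 to 0.58 and ILMN_3310491 from -1.06 to -0.97. The adjusted p of HNRNPDL by limma still ran from 0.0033 to 0.686, and it passed the full threshold in 0 settings. The cause of these shifts was not tested. BeadChip as a block could not be run, since the column names give no chip.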

Other observations

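Some array-wide and probe-level values belong to no comparison above. A probe with no gene name, ILMN_1870111, read 6.69 to 7.25 at 0 h and 7.36 to 7.83 at 12 h, with no overlap across the 12 arrays, and its change of 0.74 had an adjusted p of 0.0399. With artesunate it read 6.91 to 7.89 at 12 h. Another unnamed probe, ILMN_3235832, read 4.54 to 6.29 in the 12 h control and 6.11 to 7.48 with 12 h of artesunate, beside 4.91 to 7.45 at 0 h, and its change over time was -0.72 (adjusted p 0.231).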
